A study of Canis lupus familiaris with 10 samples.

Results

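Transcripts of 9 genes that make, break down or sense prostaglandins and 12-hydroxyheptadecatrienoic acid (12-HHT) were followed through a calcium switch in MDCK cells, a dog kidney line that grows as an epithelial sheet. They were taken by symbol: PLA2G4A, which releases arachidonate, the cyclooxygenases PTGS1 and PTGS2, the downstream enzymes PTGES, TBXAS1 and LTA4H, the prostaglandin dehydrogenase HPGD, and the prostaglandin E2 receptors PTGER2 and PTGER4. Each of the 9 was annotated to exactly 1 probe set, among 15947 genes with a probe set. The filter for testing asked for a log2 signal over 7.21, the median of the whole table, on at least 2 arrays. This kept 7 of the 9, among 10498 genes in all. PTGS1 and HPGD lay below that level on every array and were not tested.

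A line overexpressing human BLT2 was compared with a line labelled Mock. The series title places the question in the 12-HHT and BLT2 axis after a calcium switch, a procedure in which junctions between epithelial cells open without calcium and form again when it is given back. Both lines were MDCK cells and each was taken at 5 steps: confluent cells in DMEM with 10% serum (0 h), 2 h and then 18 h in the calcium-free medium SMEM, 2 h back in high-calcium DMEM after the 18 h, and the same 2 h return with 200 nM 12-HHT. RNA mixed from 3 preparations was hybridised to 1 canine gene array for each line and step, 10 arrays in all. Medium changed together with calcium, so the effects of calcium and of the rest of the medium cannot be told apart. Whether either line was a single clone is not given in the sources used here. None of the annotated probe sets stood for LTB4R2, the gene of BLT2, and the overexpression itself was not analysed here.

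Prostanoids are made from arachidonate, which cytosolic phospholipase A2 frees from membranes and which the cyclooxygenases turn into prostaglandin H2. PTGES converts prostaglandin H2 to prostaglandin E2, while thromboxane synthase, encoded by TBXAS1, gives both thromboxane A2 and 12-HHT, the ligand of BLT2. LTA4H belongs to the neighbouring leukotriene branch and makes leukotriene B4, which binds BLT1 with high affinity and BLT2 with low affinity.

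Array medians lay between 7.16 and 7.27. Correlated with the other 9 arrays, the 2 h array of BLT2 cells averaged 0.975, and the remaining arrays averaged 0.982 to 0.987. Of 8 markers of kidney epithelium, 7 lay above 7.21 on all 10 arrays, and the list averaged 10.3 to 10.6 on the BLT2 arrays and 10.3 to 10.5 on the Mock arrays. The kept markers of other cell types were 1 of 8 for fibroblasts, 2 of 8 for endothelium, 2 of 7 annotated for leukocytes and 2 of 3 annotated for platelets. Single markers moved. At 18 h against 0 h the epithelial genes CDH1 and ESRP1 rose by 0.53 and 0.69 and PAX8 fell by 0.57. At 18 h against 2 h CDH1 and ESRP1 rose by 0.43 and 0.46, and the leukocyte marker CD14 fell by 0.55. PAX8 rose by 0.93 at return against 18 h. At return against 0 h CDH1 and ESRP1 were higher by 0.60 and 0.44. BLT2 minus Mock, the endothelial marker VWF was -0.56, ESRP1 -0.42 and KRT18 0.50. The part of these markers in the changes of the 9 genes was not tested. Fewer cells and less RNA per cell cannot be told apart on such arrays.

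With 1 array for each line and step there are no replicate arrays. Step changes and the line difference were fitted in limma with line and step as additive terms, so their standard error (SE) is the part of the signal that these terms leave over, with 4 residual degrees of freedom. Each step change sets 2 arrays, 1 per line, against the 2 of another step. Fits were also made with 1 array left out in turn. For a step change, leaving out either array of a step not compared gives the same fit. Such a fit is counted for both arrays. A gene is called when its limma p, adjusted by Benjamini-Hochberg over all 10498 genes, is under 0.05. Differences within 1 line set 1 array against 1 array and are given by size, with no test.

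**Figure D1:**
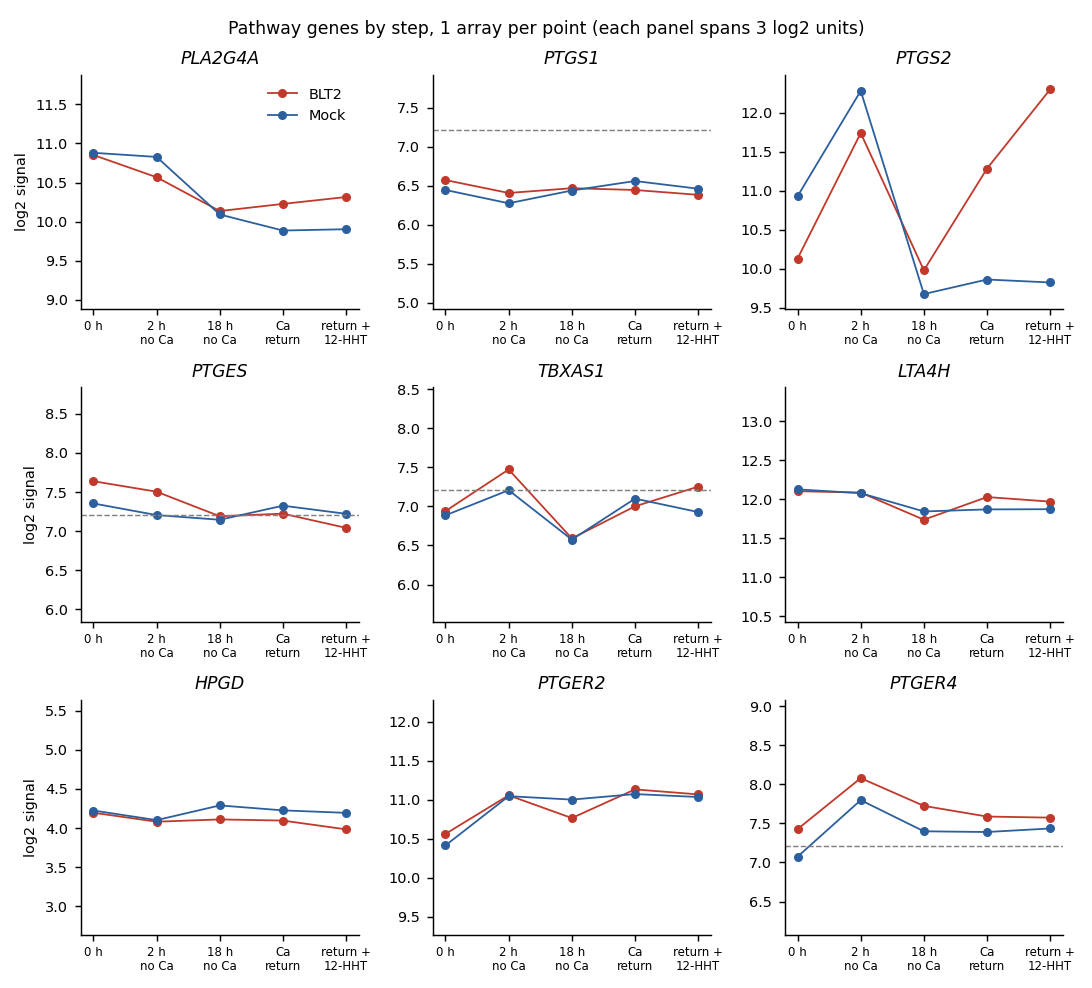
Log2 signal of the 9 genes (y axis, log2 units, each panel spanning the same number of units) at the 5 steps (x axis) in BLT2 and Mock cells, 1 array per point; the dashed line marks the filter level of 7.21. PTGS2 has the widest range, 2.62, and its lines separate after calcium return, to 11.28 in BLT2 and 9.86 in Mock cells.

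PLA2G4A encodes cytosolic phospholipase A2 alpha, the enzyme that frees arachidonate when calcium rises in the cell. Its log2 signal in BLT2 cells was 10.85 at 0 h, 10.57 at 2 h, 10.13 at 18 h, 10.23 at return and 10.31 at return with 12-HHT. In Mock cells it was 10.88, 10.83, 10.09, 9.89 and 9.90 at the same steps. Every array from 18 h onward was lower than every array at 0 h and 2 h, in both lines. How many of all genes do so was not counted. PLA2G4A fell by 0.75 ± 0.17 (SE) at 18 h against 0 h, to 0.593 of the 0 h signal (limma adjusted p = 0.0163), with -0.72 in BLT2 and -0.79 in Mock cells. The call was lost without either 0 h array or either 18 h array, with adjusted p up to 0.119. It fell by 0.59 ± 0.17 at 18 h against 2 h (limma adjusted p = 0.0434), a call kept in 5 of the 10 fits that left out 1 array, with adjusted p up to 0.244. After calcium return it was still 0.81 ± 0.17 lower than at 0 h on the log2 scale (change -0.81, limma adjusted p = 0.0206), with -0.63 in BLT2 and -0.995 in Mock cells. That call was lost without either 0 h array or the Mock return array, with adjusted p up to 0.125.

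PTGS2, the inducible cyclooxygenase, moved over 2.62 log2 units, the widest range of the 9 genes. In BLT2 cells its log2 signal was 10.13 at 0 h, 11.74 at 2 h, 9.98 at 18 h, 11.28 at return and 12.30 at return with 12-HHT. Mock cells had 10.93, 12.28, 9.68, 9.86 and 9.82. Both lines were high at 2 h and low at 18 h, but after calcium came back only the BLT2 arrays were high again, and the BLT2 array with 12-HHT had the highest signal of the 10.

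At 2 h against 0 h PTGS2 differed by 1.61 in BLT2 cells and by 1.35 in Mock cells, rank 32 of 10286 and rank 52 of 9872 genes in order of increase. An increase of at least 1 log2 unit occurred in 1.22% of genes in BLT2 and in 1.14% of genes in Mock cells. The fitted change was 1.48 ± 0.72 (95% interval -0.19 to 3.15), a 2.79-fold difference that was not called (limma adjusted p = 0.264). The fitted change at 18 h over 2 h was -2.18 ± 0.72, to 0.221 of the 2 h signal (limma adjusted p = 0.0651), with -1.76 in BLT2 and -2.60 in Mock cells. The SE of PTGS2 in this fit contains the separation of the lines after return, because the additive terms leave it over. In a fit with a separate line difference for the 2 return steps, chosen after the data were seen, the changes were the same and the SE was 0.30. Both were then called, at limma adjusted p = 0.0216 for 2 h against 0 h and 0.00224 for 18 h against 2 h. Many more genes were called in that fit, 1768 and 4136 of 10498, where the additive fit called 485 and 2381.

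PTGS1, the constitutive cyclooxygenase, stayed between 6.27 and 6.57 on all 10 arrays, a range of 0.30. HPGD, the dehydrogenase that starts prostaglandin breakdown, lay between 3.98 and 4.29. Both were under the filter level on every array, so these signals carry little information on change.

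PTGES encodes the inducible microsomal prostaglandin E synthase. In BLT2 cells its log2 signal was 7.64 at 0 h, 7.50 at 2 h, 7.19 at 18 h, 7.22 at return and 7.04 with 12-HHT. Mock cells had 7.35, 7.20, 7.14, 7.33 and 7.22. The 2 highest arrays were the BLT2 arrays at 0 h and 2 h, and 6 of the 10 arrays lay above the filter level. No step change of PTGES was called. The largest was -0.33 ± 0.14 at 18 h against 0 h (limma adjusted p = 0.127), with -0.45 in BLT2 and -0.21 in Mock cells.

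TBXAS1, the thromboxane synthase from which 12-HHT also comes, lay close to the filter level and passed it on 2 arrays, those of BLT2 cells at 2 h and with 12-HHT. Its log2 signal in BLT2 cells was 6.94 at 0 h, 7.47 at 2 h, 6.59 at 18 h, 7.00 at return and 7.25 with 12-HHT. In Mock cells it was 6.89, 7.21, 6.58, 7.10 and 6.93. Both lines were highest at 2 h and lowest at 18 h. The fitted change at 18 h against 2 h was -0.76 ± 0.13, to 0.591 of the 2 h signal (limma adjusted p = 0.00933), with -0.88 in BLT2 and -0.63 in Mock cells. Both 18 h arrays lay below the filter level, and TBXAS1 entered the test partly through the BLT2 array at 2 h, so its entry was not independent of this comparison. With no filter the adjusted p was 0.0141. The call was lost without the BLT2 array at 2 h or at 18 h, with adjusted p up to 0.104. The 5121 genes above the filter on no array averaged 5.61 at 18 h and 5.82 at 2 h in BLT2 cells, and 5.62 at 18 h and 5.58 at 2 h in Mock cells. Their part in the TBXAS1 change in BLT2 cells was not tested.

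The change of TBXAS1 at 2 h against 0 h, 0.43 ± 0.13 (limma adjusted p = 0.0957), and at return against 18 h, 0.47 ± 0.13 (limma adjusted p = 0.0987), did not pass the threshold.

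LTA4H, the leukotriene A4 hydrolase, varied least among the 7 tested genes, by 0.39. In BLT2 cells its log2 signal was 12.10 at 0 h, 12.09 at 2 h, 11.74 at 18 h, 12.03 at return and 11.97 with 12-HHT. Mock cells had 12.13, 12.08, 11.84, 11.87 and 11.87. The 18 h array was the lowest of each line. LTA4H fell by 0.32 ± 0.10 at 18 h against 0 h (limma adjusted p = 0.0497), a call at the edge of the threshold that was lost in each of the 10 fits without 1 array, with adjusted p between 0.0512 and 0.315.

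PTGER2 and PTGER4 encode EP2 and EP4, the prostaglandin E2 receptors that raise cyclic AMP. The log2 signal of PTGER2 in BLT2 cells was 10.56 at 0 h, 11.06 at 2 h, 10.77 at 18 h, 11.13 at return and 11.07 with 12-HHT. In Mock cells it was 10.42, 11.05, 11.00, 11.07 and 11.04. The 0 h array was the lowest of each line, and the 2 arrays at 0 h did not overlap with those of any later step. The share of all genes that separate in this way was not counted.

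PTGER2 rose by 0.56 ± 0.11 at 2 h against 0 h (limma adjusted p = 0.0385), with 0.49 in BLT2 and 0.63 in Mock cells. Without any 1 of the 10 arrays the adjusted p lay between 0.0524 and 0.195. It rose by 0.39 ± 0.11 at 18 h against 0 h (limma adjusted p = 0.0387), with 0.20 in BLT2 and 0.59 in Mock cells, and kept that call in 2 of the 10 such fits, with adjusted p up to 0.256. At return against 0 h it rose by 0.61 ± 0.11, or 1.53-fold (limma adjusted p = 0.0151), with 0.57 in BLT2 and 0.66 in Mock cells. This last call was lost without either 0 h array or either return array, with adjusted p up to 0.104.

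PTGER4 had a log2 signal in BLT2 cells of 7.43 at 0 h, 8.08 at 2 h, 7.72 at 18 h, 7.59 at return and 7.57 with 12-HHT. In Mock cells it was 7.07, 7.80, 7.40, 7.39 and 7.44. The 2 h array was the highest and the 0 h array the lowest of each line, and BLT2 cells were above Mock cells at all 5 steps. PTGER4 rose by 0.69 ± 0.10 at 2 h against 0 h, or 1.61-fold (limma adjusted p = 0.0141), with 0.65 in BLT2 and 0.72 in Mock cells. The call was lost without either 0 h array or the BLT2 array at 2 h, with adjusted p up to 0.113. At 18 h it was 0.38 ± 0.10 below its 2 h level (change -0.38, limma adjusted p = 0.0318) and 0.31 ± 0.10 above its 0 h level (limma adjusted p just under 0.05). The first of these calls was kept in 4 and the second in 2 of the 10 fits without 1 array, with adjusted p up to 0.163 and 0.284.

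**Figure D2:**
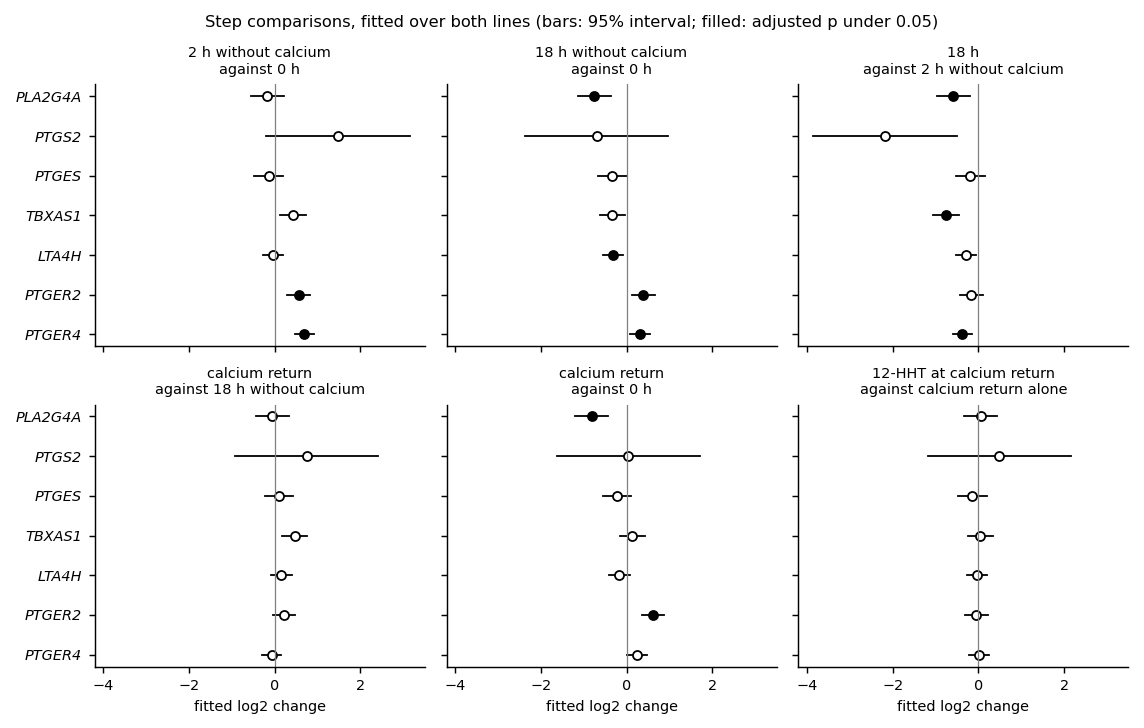
Fitted log2 change of the 7 tested genes (x axis, log2 units; y axis, genes) in 6 step comparisons over both lines, with bars for the 95% interval and filled points for adjusted p under 0.05. PLA2G4A is lower and PTGER2 higher at 18 h and at return against 0 h, and PTGS2 has the widest intervals, from -0.19 to 3.15 at 2 h against 0 h.

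The counts of called members were set beside the share called among all genes. At 2 h against 0 h, 2 of the 7 genes were called, both higher and both receptors, where 4.62% of all tested genes were called and 2.64% were called higher. After 18 h, against 0 h, 4 of 7 were called, where the background was 27.2%: PTGER2 and PTGER4 higher, as were 15.0% of all genes, and PLA2G4A and LTA4H lower, as were 12.2%. Between 18 h and 2 h, 3 of 7 were called, PLA2G4A, PTGER4 and TBXAS1, the last with its entry not independent of the comparison, and all were lower, where 22.7% of all genes were called and 8.33% were called lower. At return against 18 h, 0 of 7 genes were called by limma, where 3.34% of all genes were called, and 1 of them, TBXAS1, had an unadjusted p under 0.05. At return against 0 h, 2 of 7 were called, PLA2G4A lower and PTGER2 higher, with a background of 15.0%. The median change of the 7 genes was 0.43 at 2 h against 0 h, and the median of all genes was -0.02. For 18 h against 0 h these medians were -0.33 for the 7 genes and 0.02 for all genes. The 0.43 is the value of TBXAS1, which was not called and entered the test partly through the BLT2 array at 2 h. The -0.33 is the value of PTGES, which was not called. No shift of the 7 genes as a set is read from these medians.

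Whether the lines differed after calcium return was examined step by step. BLT2 minus Mock, the log2 difference of PTGS2 was -0.80 at 0 h, -0.54 at 2 h, 0.30 at 18 h, 1.42 at return and 2.47 at return with 12-HHT. BLT2 cells were thus below Mock cells in the first steps and above them in both return steps, by 2.68-fold at return alone and by 5.56-fold with 12-HHT. In order of BLT2 over Mock, PTGS2 ranked 106 of 10307 genes at return and 12 of 10120 with 12-HHT, where 2.70% and 2.60% of genes were higher by at least 1 log2 unit. The 5th to 95th percentile of all genes ran from -0.52 to 0.76 at return and from -0.60 to 0.74 with 12-HHT.

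The difference between the lines averaged 1.95 over the return steps and -0.34 over the 3 earlier steps for PTGS2. The change in that difference was 2.29 ± 0.39 (95% interval 1.37 to 3.21, limma adjusted p = 0.0170, 3 residual degrees of freedom). PTGS2 was the 1 gene called among the 7, where 11.3% of all genes were called and 8.50% were called higher. For this comparison, leaving out either array of a step gives the same fit. Without the 12-HHT arrays the value was 1.77 (adjusted p = 0.0823) and without a 0 h array it was 2.07 (adjusted p = 0.0686), so the call was lost. It was kept without the arrays at 2 h, 18 h or return alone, with values of 2.19, 2.62 and 2.82.

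**Figure D3:**
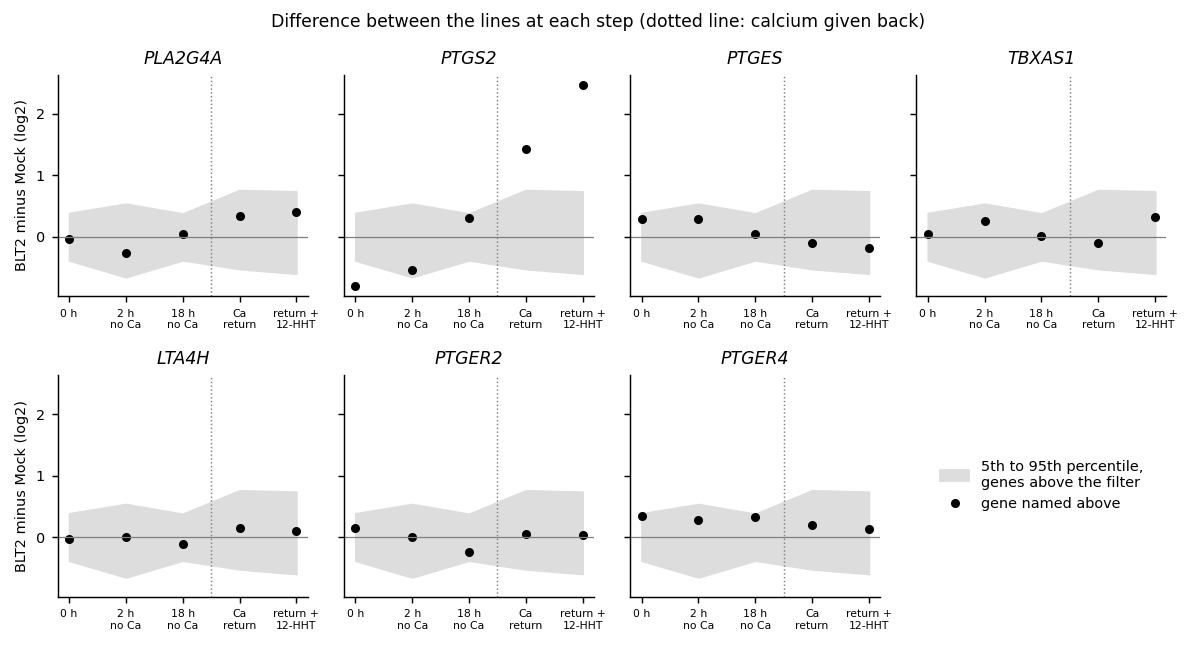
Log2 signal in BLT2 minus Mock cells (y axis, log2 units) at the 5 steps (x axis) for the 7 tested genes, with 1 array per line and step; grey marks the 5th to 95th percentile of all genes above the filter, and the dotted line marks calcium return. PTGS2 lies below the grey band at 0 h, at -0.80, and above it in both return steps, at 1.42 and 2.47, and the other 6 genes lie inside it in both return steps.

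The other 6 genes were not called in this comparison. PLA2G4A came nearest, with a line difference of 0.38 over the return steps and -0.08 over the earlier steps, a change of 0.46 ± 0.12 (limma adjusted p = 0.0565). At the single steps its difference was -0.03, -0.26, 0.04, 0.34 and 0.41. PTGES went the other way, with -0.14 over the return steps and 0.21 over the earlier steps, a change of -0.35 ± 0.12 (limma adjusted p = 0.0986). PTGS2 and PLA2G4A are next to each other among protein-coding genes of the dog assembly UU_Cfam_GSD_1.0, per RefSeq. Their line differences over the return steps were 1.95 and 0.38.

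Across all 5 steps, PTGER4 was the 1 of the 7 genes called between the lines, where 15.9% of all genes were called and 7.82% were called higher in BLT2 cells. It was higher in BLT2 cells by 0.26 ± 0.06, or 1.20-fold (limma adjusted p = 0.0312), with single-step differences of 0.35, 0.28, 0.33, 0.20 and 0.14. The call was lost in every fit without 1 array, with adjusted p between 0.0609 and 0.0926. PTGS2, which changed sign between steps, had 0.57 ± 0.45 (limma adjusted p = 0.417), and the other 5 genes lay between 0.00 and 0.11.

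Within lines, PTGS2 at return against 18 h differed by 1.30 in BLT2 cells, rank 68 of 10068 genes, and by 0.19 in Mock cells. At least 1 log2 unit was gained by 1.88% of genes in BLT2 and by 0.235% of genes in Mock cells. TBXAS1 lay below the filter level at both steps in both lines. The other 5 tested genes differed by -0.14 to 0.37 in BLT2 cells and by -0.21 to 0.18 in Mock cells.

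The effect of 12-HHT, the BLT2 ligand, was read by setting return with 12-HHT against return alone. Fitted over both lines, 0 of 10498 genes were called by limma, 29 had an unadjusted p under 0.05, and the 7 genes had adjusted p = 0.999985. PTGS2 had a fitted change of 0.49 ± 0.72 (95% interval -1.18 to 2.16), and the other 6 lay between -0.14 and 0.05.

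The lines did not move alike for PTGS2. In BLT2 cells PTGS2 was 12.30 with 12-HHT and 11.28 at return alone, a difference of 1.01, or 2.02-fold, and in Mock cells it was 9.82 with 12-HHT and 9.86 at return alone, a difference of -0.04. It was 1 of 4 genes higher by at least 1 log2 unit with 12-HHT in BLT2 cells, or 0.0401% of the 9982 genes compared, and 0 of 10146 genes were that much higher in Mock cells. The other 3, named after their values were seen, were ANKRD1 at 1.62, EREG at 1.27 and FST at 1.10. ANKRD1 encodes an ankyrin repeat protein induced by stretch in muscle, EREG the EGF receptor ligand epiregulin, and FST the activin inhibitor follistatin. Over all 10498 genes the difference had a standard deviation of 0.14 in BLT2 and 0.14 in Mock cells.

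The response to 12-HHT in BLT2 cells minus that in Mock cells was compared in a fit added after the data were seen, with 2 residual degrees of freedom and an error taken from the 3 steps before calcium return. PTGS2 had 1.05 ± 0.47 (95% interval -0.06 to 2.17, limma adjusted p = 0.999925), rank 2 of 10498 genes after ANKRD1 at 1.76. TBXAS1 differed by 0.25 in BLT2 and by -0.17 in Mock cells, and of these 4 arrays only the BLT2 array with 12-HHT lay above the filter level, so nothing is read from it. The remaining 5 genes lay between -0.08 and 0.07. Limma called 0 of the 10498 genes in this fit, and 126 had an unadjusted p under 0.05.

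**Figure D4:**
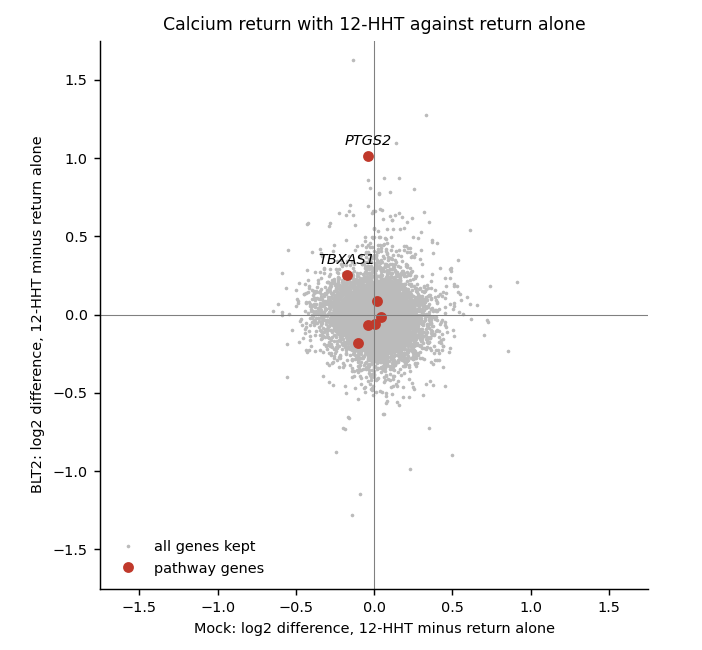
Log2 difference between return with 12-HHT and return alone in Mock cells (x axis) and BLT2 cells (y axis) for the 10498 kept genes, 1 array against 1 array in each line, with the 7 pathway genes in red. PTGS2 stands at 1.01 in BLT2 and -0.04 in Mock cells, and the other 6 lie between -0.18 and 0.25 in BLT2 cells, with TBXAS1 highest.

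Genes with a signal pattern like that of a member were sought by Pearson correlation over the 10 arrays, among 2358 kept genes with a range of at least 1 log2 unit. Only PTGS2 and PTGER4 of the 7 had such a range. The 3 genes most like PTGS2 were TRIB1 (r = 0.963), a pseudokinase, RBM11 (r = 0.912), an RNA-binding protein, and MON1B (r = 0.905), a protein of vesicle traffic. TRIB1 in BLT2 cells was 10.00, 10.64, 9.69, 10.36 and 10.66 from 0 h to return with 12-HHT, and in Mock cells it was 10.00, 10.78, 9.43, 9.41 and 9.40. TRIB1 was low at 18 h in both lines and high in both return steps in BLT2 cells. It was picked for its likeness to PTGS2 on these same arrays, so this likeness follows from the choice. The genes most like PTGER4 were JUN (r = 0.912), a subunit of the transcription factor AP-1, the pseudokinase TRIB3 (r = 0.883) and the serine protease PRSS12 (r = 0.878). The 10 arrays share lines and steps, and they are not independent samples of these patterns.

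A further 95 genes of arachidonate and eicosanoid metabolism, in 7 lists, gave 83 with a probe set and 50 tested. At 2 h against 0 h, 1 of the 50 rose and 2 fell, where 4.62% of all genes were called. CYP1B1, a cytochrome P450 that also oxidises arachidonate, rose by 1.61 ± 0.11 (limma adjusted p = 0.00129), to 11.86 in BLT2 and 11.94 in Mock cells at 2 h, against 10.35 and 10.23 at 0 h. It kept this call without any 1 array. The 2 that fell were PLA2G15, the lysosomal phospholipase, by 0.75 ± 0.13, and ABHD6, which hydrolyses the endocannabinoid 2-arachidonoylglycerol, by 0.65 ± 0.13. PLA2G15 kept that call in 5 and ABHD6 in 3 of the 10 fits without 1 array, with adjusted p up to 0.213 and 0.257.

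At 18 h against 0 h, 1 of the 50 rose and 7 fell, where 27.2% of all genes were called. AKR1B1, an aldose reductase with prostaglandin F synthase activity, fell by 0.75 ± 0.12 (limma adjusted p = 0.00524) and kept its call without any 1 array. The second microsomal prostaglandin E synthase, PTGES2, fell by 0.34 ± 0.10 (adjusted p up to 0.194 without 1 array). Of the 7 tested genes on the receptor list, 3 fell, where 12.2% of all genes were called lower. PPARG fell by 1.01 ± 0.28 and PPARD by 0.58 ± 0.11, both nuclear receptors that bind eicosanoids. PTGFRN, a partner protein of the prostaglandin F receptor, fell by 0.48 ± 0.12. The receptor genes PTGER1, PTGDR2, TBXA2R and OXER1 on that list were tested and not called. PPARG lost the call without any 1 of the 0 h and 18 h arrays, PPARD when the 0 h array of Mock cells or the 18 h array of BLT2 cells was left out, and PTGFRN without either 0 h array or the BLT2 18 h array, with adjusted p up to 0.222, 0.103 and 0.225. PLA2G15 and CYP1B1 fell too, by 0.72 ± 0.13 and 0.50 ± 0.11 (adjusted p up to 0.0896 and 0.147 without 1 array). The gene that rose was PLA2G6, a phospholipase A2 that does not need calcium, by 0.72 ± 0.11 (limma adjusted p = 0.00394, and 0.0518 without the BLT2 array at 18 h). The log2 signal of PLA2G6 at 0 h was 7.34 in BLT2 and 7.30 in Mock cells. It was 7.70 and 7.81 at 2 h, a change that was not called, and 8.06 and 7.91 at return. A link between the changes of PLA2G6 and PLA2G4A was not tested. Between 18 h and 2 h, 1 of the 50 rose and 5 fell, where 22.7% of all genes were called, and CYP1B1 had the largest change, -2.11 ± 0.11. The gene that rose was DAGLB, by 0.42 (limma adjusted p = 0.0437). PTGES2 and ABCC1 differed by -0.45 and -0.54 (limma adjusted p = 0.0184 and 0.0404). The calls of DAGLB, PTGES2 and ABCC1 were each lost in some fits without 1 array.

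At return against 18 h, 1 of the 50 rose and 0 fell, and at return against 0 h 3 rose and 2 fell, where 3.34% and 15.0% of all genes were called. The gene that rose against 18 h was CYP1B1, by 0.66 ± 0.11. Higher than at 0 h were PLA2G6, by 0.67 ± 0.11, MGST2, a glutathione transferase that can make leukotriene C4, by 0.54 ± 0.12, and ABCC4, an exporter of prostaglandins, by 0.53 ± 0.10. Lower than at 0 h were AKR1B1, by 0.63 ± 0.12 (change -0.63), and PLA2G15, with -0.55 ± 0.13. None of these 6 changes was called in all 10 fits without 1 array. With 12-HHT against return alone, 0 of the 50 were called by limma, and 0 had an unadjusted p under 0.05.

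In the change of the line difference after calcium return, 7 of the 50 were called and all were higher. Among all genes 11.3% were called, 8.50% higher and 2.84% lower. The largest was LPCAT2, an acyltransferase that returns fatty acids to phospholipids, at 1.15 ± 0.18 (limma adjusted p = 0.0132). The nuclear receptor PPARG had 0.91 ± 0.13 (limma adjusted p = 0.0105). MGST1 and MGST3, microsomal glutathione transferases, had 0.98 ± 0.22 and 0.76 ± 0.12. The other 3 were PLA2G7, a phospholipase that inactivates platelet-activating factor, at 0.52 ± 0.13, PTGR1, which reduces prostaglandin metabolites, at 0.50 ± 0.11, and LPCAT1 at 0.47 ± 0.11. Without 1 array the 7 calls were kept in 2 to 6 of 10 fits, with adjusted p up to 0.291. Here too, leaving out either array of a step gives the same fit, so each fit is counted for both arrays. The median of the 50 was 0.12, and that of all genes was 0.03.

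**Figure D5:**
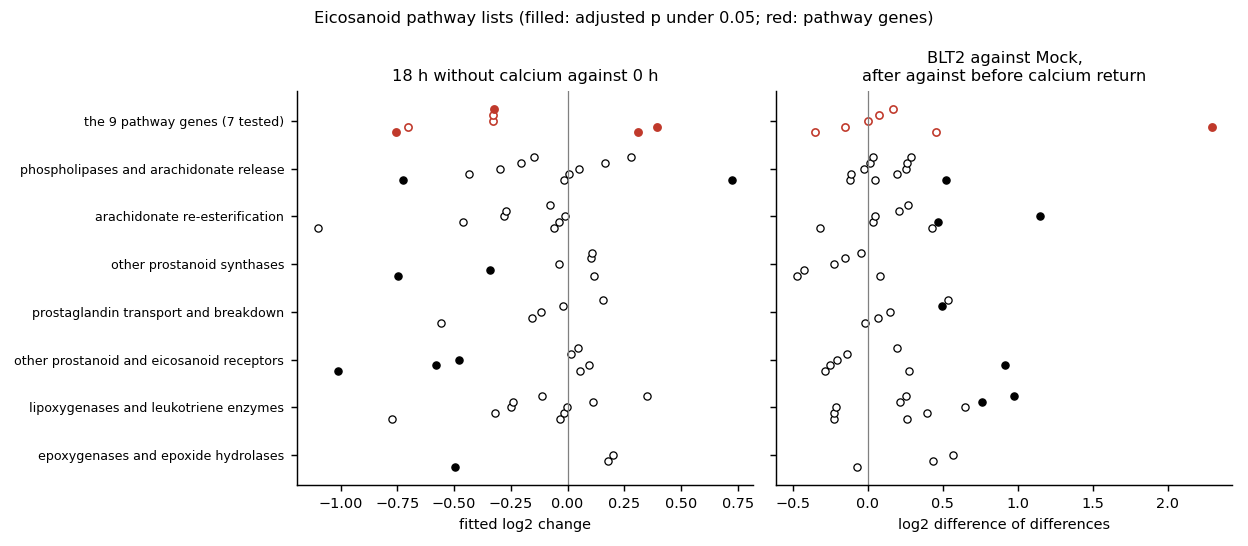
Log2 changes (x axis) of the 7 tested pathway genes in red and of the 50 tested genes of 7 further eicosanoid lists in black, by list (y axis), at 18 h against 0 h and for BLT2 against Mock after against before calcium return; filled points have adjusted p under 0.05. Vertical spread within a list only separates points. In the right panel PTGS2 at 2.29 lies beyond all others, the next being LPCAT2 at 1.15.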

How the data were processed

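Expression was measured on canine gene arrays, and the authors deposited 1 table of normalized log2 signals for 32391 probe sets, whose scale was read from the values (1.55 to 14.1). Affymetrix Expression Console and GCRMA were used, per the submitters' processing notes, with versions not given in the sources used here. Normalization to a shared distribution hides shifts that act on a whole array, and signals near background tell little about change. A single gene symbol was given for 16545 probe sets. The 370 with several symbols and the 15476 listed with none were left unnamed. For 516 genes with several probe sets the one with the highest mean was used. All columns were matched to samples by name, and 0 were left out.

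Genes above the overall median on at least 2 arrays were fitted in limma 3.58.1 under R 4.3.3 with eBayes, and p-values were adjusted by Benjamini-Hochberg over all of them. The additive fit had a prior of 3.46 degrees of freedom and the fit with separate line differences 4.11. The scripts were tested on simulated data. P-values measure the spread left between arrays of mixed RNA and not that between cultures. Named were all 9 genes, called genes of the pathway lists (up to 3 per list and direction) and the 3 most correlated genes. The genes, lists and tests were chosen with earlier results of these data known. Alternatives were other filters, quantile normalization, centring on array medians, averaged probe sets per gene, an eBayes trend, fewer arrays and other terms in the fit. Dog sequences of these genes were not used here.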

Additional observations from a re-analysis of the deposited data

Results flagged for a closer look

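The line difference of PTGS2, BLT2 minus Mock, was larger after calcium return than before it by 2.29 on the log2 scale, and this difference between steps passed its test. It was 1.42 at return and 2.47 with 12-HHT, against -0.80, -0.54 and 0.30 at the 3 earlier steps. Of the 4 arrays after return, 2 had 12-HHT, and without them the value was 1.77 (limma adjusted p = 0.0823). Without a 0 h array it was 2.07 (adjusted p = 0.0686), so the call was lost in both cases.

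At calcium return against 0 h, PTGS2 moved in opposite directions in the lines, by 1.15 in BLT2 cells and by -1.07 in Mock cells. Each value is 1 array against 1 array, and this contrast between the lines was not tested on its own.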

How the results depend on the processing

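Precision is limited by the number of arrays, 1 per line and step, and by signal over background for TBXAS1, PTGES and PTGER4, which lay near the filter level, and for PTGS1 and HPGD, which lay below it. With line as a term of the fit, the arrays of a step comparison are paired by line. No further pairing was possible because the labels give no replicate numbers. No fitted direction of a called gene reversed. The motif search in promoters was not run. Unless said otherwise, the cause of a moved count was not tested.

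At 2 h against 0 h the 2 called members became 1 with no signal filter, the 75th percentile filter (TBXAS1 and PTGER4 among those not tested there), median centring or no 12-HHT arrays, 4 with only the arrays compared and 0 with step alone. The 485 genes became 309, 312, 298, 1805 and 118 with no filter, median centring, no 12-HHT arrays, only the arrays compared and step alone, and 1768 with a line by return term, an alternative chosen after seeing the data like the others named as added. At 18 h against 0 h the 4 called members became 1 with no filter, no 12-HHT arrays or step alone, 2 with median centring and 7 with only the arrays compared. The 2860 genes became 5460 with only the arrays compared, 1264 with step alone and 4474 with a line by return term (added). At 18 h against 2 h the 3 called members became 1 with no filter, median centring or step alone, and 5 with a line by return term (added). They also became 1 with the 75th percentile filter, where TBXAS1 and PTGER4 were not tested and PLA2G4A kept its call. The 2381 genes became 760 with step alone and 4136 with a line by return term (added). At return against 18 h the 351 genes became 230, 168, 228 and 64 with no filter, only the arrays compared, no 12-HHT arrays and step alone. At return against 0 h the 2 called members became 1 and the 1579 genes 643 with only the arrays compared, and 415 genes with step alone.

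Between the lines the 1 called member, PTGER4, became 0 with no filter, the 75th percentile filter, where it was not tested, median centring, an eBayes trend or no 12-HHT arrays, the last with 575 genes called and 1674 in the fit reported. In the change of the line difference after return the 1 called member, PTGS2, was joined by PLA2G4A, making 2, with the 75th percentile filter (adjusted p = 0.0344), an eBayes trend (0.0253) or without the 2 h arrays of both lines (added, 0.0454), and was lost, giving 0, with no 12-HHT arrays. The 1190 genes became 607 with no filter and 95 with no 12-HHT arrays. Quantile normalization and averaging the probe sets of a gene left all these counts within 1.5 times. The 108 differences within lines kept their values to within 0.0918 under quantile normalization and 0.0912 under median centring.

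Leaving out 1 array at a time, called members and called genes ran from 0 to 1 and 34 to 1024 at 2 h against 0 h, from 0 to 3 and 591 to 3148 at 18 h against 0 h, from 0 to 4 and 37 to 2279 at 18 h against 2 h, from 0 to 0 and 2 to 375 at return against 18 h, from 0 to 2 and 40 to 1848 at return against 0 h, from 0 to 0 and 0 to 0 with 12-HHT, from 0 to 0 and 575 to 1116 between the lines, and from 0 to 2 and 51 to 1756 for the change after return. The added comparison of 12-HHT responses gave 0 to 0 and 0 to 0 over the 6 arrays that could be left out.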

Other observations

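Between the lines over all 5 steps, 5 of the 50 further eicosanoid genes were higher in BLT2 cells and 3 were lower, where 15.9% of all genes were called. MGST1, a microsomal glutathione transferase that defends membranes against lipid peroxides, had the largest difference, with -3.67 ± 0.21 on the log2 scale (limma adjusted p = 0.000289). Its log2 signal was 7.97, 8.84, 7.73, 8.98 and 8.79 in BLT2 cells from 0 h to return with 12-HHT, and 12.32, 12.48, 11.92, 11.92 and 12.02 in Mock cells, so the lines did not overlap. The share of all genes whose lines separate in this way was not counted. SLCO3A1, a prostaglandin transporter, was lower in BLT2 cells by 0.56 ± 0.06 on the log2 scale (change -0.56, limma adjusted p = 0.00250). The third lower gene was GGT1, which trims leukotriene C4, at -0.70 ± 0.15.

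PLA2G7 was higher in BLT2 cells by 0.77 ± 0.11 (limma adjusted p = 0.00739) and PLA2G15 by 0.50 ± 0.08. The calls of MGST1, SLCO3A1, PLA2G7 and PLA2G15 were kept in all 10 fits without 1 array. ABCC1, the leukotriene C4 exporter, had 0.47 ± 0.09, LPCAT1 0.41 ± 0.10 and PTGFRN 0.31 ± 0.08. GGT1, ABCC1, LPCAT1 and PTGFRN were called in 6, 4, 2 and 2 of those fits, with adjusted p up to 0.0707, 0.0737, 0.114 and 0.133. Between the lines, leaving out either array of a step gives the same fit, so each fit is counted for both arrays.

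At 18 h against 2 h, GGT1 differed by -1.27 ± 0.24 and AKR1B1 by -0.61 ± 0.12, each called in 7 of 10 fits without 1 array. In BLT2 cells, the 2 genes lower by at least 1 log2 unit with 12-HHT, named after their values were seen, were ADAMTS1 at -1.28 and the immediate early gene EGR1 at -1.15. In Mock cells ADAMTS1 differed by -0.14 and EGR1 by -0.09.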
